A study of Homo sapiens with 6 samples.

Results

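The genes described here are the sterol regulatory element-binding proteins (SREBPs), the proteins that control them, and the enzymes that make cholesterol and fatty acids. They were listed by name and role, 48 in all, and each was matched by symbol to 1 of the 60604 genes of the count table. Of the 48, 46 had enough reads to be tested, among 15022 genes tested in all. The cells were MIA PaCa-2, a standard line from a human pancreatic carcinoma with the genotype WT, and RNA was sequenced in 3 libraries treated with BP+Huaier and 3 treated with BP. BP, black phosphorus, is a layered form of elemental phosphorus and was given at 12.5 µg/ml in both groups, and Huaier, an extract of a medicinal fungus, was added at 10 mg/ml in the BP+Huaier group. The cells grew in medium with 10% fetal bovine serum, which itself brings in cholesterol and fatty acids. Cells without BP were not analysed here, so each difference below is that of adding Huaier to BP. The sources used here do not give the treatment time. Whether the 3 libraries of a group are separate cultures is not stated, and p-values therefore reflect only how these 6 libraries vary, which may be technical. In bulk RNA, fewer cells of a kind and less RNA per cell cannot be told apart.

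SREBPs are made as precursors in the membrane of the endoplasmic reticulum. When sterols are scarce, the escort protein SCAP carries them to the Golgi apparatus, where proteases release the part that enters the nucleus and switches on genes of lipid synthesis, and when sterols are plentiful INSIG proteins hold SCAP back. SREBP-2, from SREBF2, acts mainly on genes of cholesterol synthesis and uptake, and SREBP-1, from SREBF1, mainly on genes of fatty acid synthesis, with overlap between them. SREBPs bind sterol regulatory elements (SREs) in promoters and work together with the factors NF-Y and Sp1.

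The promoters below show where such motifs lie in 3 genes. SREBF2 is shown because, of the called genes with a matched promoter, it alone had a window that held the SRE letters searched for. Their presence there was therefore fixed by the choice and is not a result. INSIG1 and MSMO1 are the 2 genes with the largest change. Each is the RefSeq window from 250 bases before to 50 bases after a listed gene start on the GRCh38.p14 build, 5′ to 3′ on the plus strand, which is the strand of all 3 genes. Capitals mark the SRE motif TCACNCCAC, the E-box TCACGTGA, which reads the same on both strands, and the NF-Y motif CCAAT. On the other strand the NF-Y motif reads ATTGG. Among the marked matches none overlapped another.
SREBF2 promoter, chr22:41832855-41833154: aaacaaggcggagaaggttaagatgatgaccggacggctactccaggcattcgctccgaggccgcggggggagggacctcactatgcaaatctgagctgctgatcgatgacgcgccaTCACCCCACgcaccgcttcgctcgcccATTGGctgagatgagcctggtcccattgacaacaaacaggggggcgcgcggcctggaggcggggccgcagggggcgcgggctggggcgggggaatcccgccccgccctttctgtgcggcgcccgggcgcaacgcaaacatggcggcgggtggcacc
INSIG1 promoter, chr7:155297628-155297927: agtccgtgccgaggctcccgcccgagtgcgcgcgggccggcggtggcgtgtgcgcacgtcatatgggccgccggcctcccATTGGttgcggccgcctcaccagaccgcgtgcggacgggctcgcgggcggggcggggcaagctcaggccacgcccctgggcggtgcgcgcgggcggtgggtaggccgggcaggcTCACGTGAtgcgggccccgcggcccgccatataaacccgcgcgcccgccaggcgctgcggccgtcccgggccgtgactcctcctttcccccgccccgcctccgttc
MSMO1 promoter, chr4:165327419-165327718: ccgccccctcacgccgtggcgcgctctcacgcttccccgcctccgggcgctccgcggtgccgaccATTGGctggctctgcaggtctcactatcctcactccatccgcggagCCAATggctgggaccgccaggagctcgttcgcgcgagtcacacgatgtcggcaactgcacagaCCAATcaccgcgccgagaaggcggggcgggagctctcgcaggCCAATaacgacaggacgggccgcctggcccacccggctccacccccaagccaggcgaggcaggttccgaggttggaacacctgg

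In SREBF2 the SRE began 133 bases before the start and a CCAAT match lay 106 bases before it. INSIG1 held 1 CCAAT match and the E-box, which began 56 bases before the start, and MSMO1 held 4 CCAAT matches. Both strands were searched. Over the 35116 RefSeq promoters of this length, the SRE letters stood in 1.13%, CCAAT in 34.6%, the Sp1 letters GGGCGG in 45.0% and the E-box in 0.98%. Promoters were matched for 42 of the 48 genes, and 62 starts were listed for them. No promoter was matched for ACAT2, FDFT1, SQLE, FASN, DGAT1 and DGAT2, all of them called higher, so these genes were not searched. Counted by gene, with any listed start, CCAAT stood in 70.0% of the 40 tested members with a promoter and in 42.5% of all 10830 tested genes with one. Among the members, 15 of the 18 called higher, 3 of the 4 called lower and 10 of the 18 not called held it. The Sp1 letters, which are not marked above, matched 3 times in SREBF2, 6 times in INSIG1 and 2 times in MSMO1. Counted by gene, they stood in 92.5% of the tested members with a promoter and in 76.9% of all tested genes with one. Of the members with a promoter, 2 held the SRE letters as searched, SREBF2 and ACSL1, and INSIG1 held the E-box. These matches describe the windows and do not show binding.

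Total counts lay between 15808056 and 16856727 in the BP+Huaier libraries and between 15657593 and 17036565 in the BP libraries, so 3 counts were worth 0.173 to 0.222 CPM with Huaier and 0.160 to 0.177 CPM without it. CPM are counts scaled by library total and TMM factor. The libraries varied more within BP+Huaier, with a biological coefficient of variation of 25.2%, than within BP, with 7.71%. BP+Huaier 3 stood apart on the first principal component, which held 72.4% of the variance: its score was 11.5, where BP+Huaier 1 and 2 scored 65.1 and 66.0 and the BP libraries scored between -50.5 and -43.4. The keratin genes KRT8 and KRT18 and vimentin (VIM) were abundant, and the epithelial genes EPCAM and KRT7 were near the level of 3 counts or below it. KRT18 and KRT19 rose (edgeR adjusted p = 0.037 and 0.017), calls lost in at least 1 alternative fit (adjusted p up to 0.13 and 0.082). KRT8 and VIM were not called (edgeR adjusted p = 0.18 and 0.96), and for KRT8 BP+Huaier 3 lay below the BP libraries. PTPRC and CD3E of immune cells, DCN of fibroblasts, ADIPOQ of adipocytes and TTR of hepatocytes had 0 counts in all 6 libraries. The summed adipocyte markers lay between 0.629 and 0.739 CPM with Huaier and between 0.319 and 0.604 CPM without it, and the summed hepatocyte markers between 0.279 and 0.813 CPM and between 0.319 and 0.439 CPM. The 4 immune markers summed to 21.0 to 34.1 CPM with Huaier and 40.8 to 45.5 CPM without it, nearly all from CD14. The 3 endothelial markers summed to 11.9 to 14.7 CPM with Huaier and 17.6 to 21.1 CPM without it, nearly all from CDH5. CDH5 fell (edgeR adjusted p = 0.030, and up to 0.13 in the alternative fits). The 4 fibroblast markers summed to 379 to 483 CPM with Huaier and 495 to 550 CPM without it, mostly from COL1A2, while COL1A1 was low and rose (edgeR adjusted p = 0.00089). The part of these markers in the results was not tested.

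With Huaier added, genes of cholesterol synthesis rose along most of the pathway, from the first committed steps to the last, together with INSIG1, the feedback inhibitor that SREBP itself induces. Of the 46 genes tested, 24 rose, 4 fell and 18 were not called (edgeR quasi-likelihood test, Benjamini-Hochberg adjusted p under 0.05 over all genes tested). Among all tested genes 14.4% were higher and 15.0% lower by the same test, 29.3% in all. The median log2 fold change was 0.50 for these genes and -0.02 for all genes tested. The largest rises were those of INSIG1, MSMO1, FDFT1 and HMGCS1, from 4.19-fold down to 3.11-fold, and the 4 genes that fell were GGPS1, LBR, ACACB and GPAM. All 3 BP+Huaier libraries lay above all 3 BP libraries for 29 of the 46 genes and below them for 5, where 21.9% and 24.9% of all tested genes did so, 46.8% in all. Of the 28 calls, 13 were made in each of the 14 alternative fits (other scalings, tools and filters, the replicate block, removal of the GC trend, and each library left out), and 15 were lost in at least 1 of them. The 13 were the rises of INSIG1, HMGCS1, MVD, IDI1, FDFT1, SQLE, CYP51A1, MSMO1, EBP, DHCR7, FASN, ACSS2 and DGAT2.

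**Figure D1:**
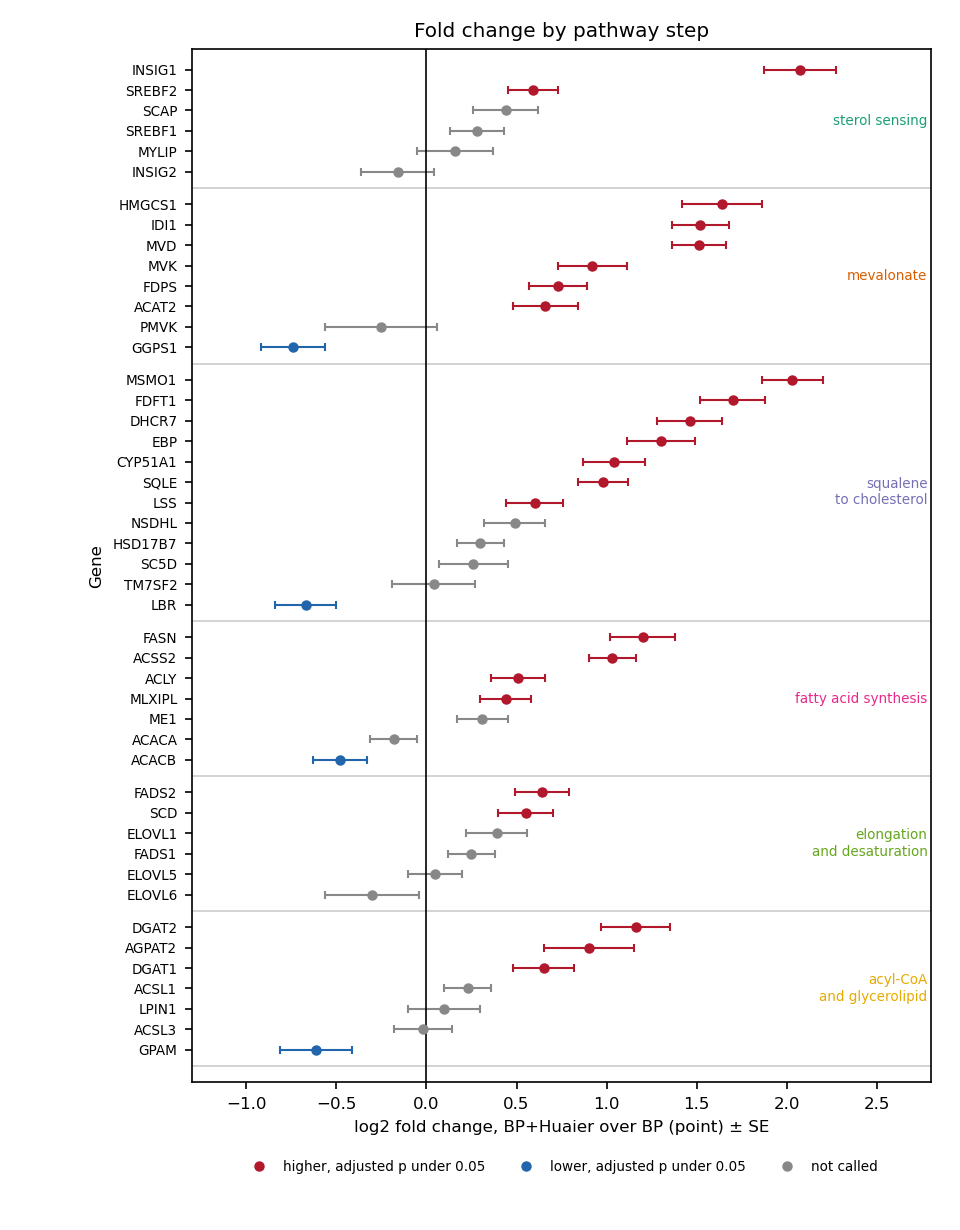
The log2 fold change of each of the 46 tested genes, BP+Huaier over BP, with its standard error, by pathway step and sorted within each step. Red points were called higher, blue points lower and grey points neither; INSIG1 and MSMO1 lie farthest to the right, at 2.07 and 2.03.

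Among the regulators, INSIG1 rose strongly and SREBF2 rose modestly. INSIG1 (ENSG00000186480.13, GRCh38 chromosome 7, 155297776 to 155310235), which retains SCAP in the endoplasmic reticulum and is itself an SREBP target, had 340, 539 and 357 CPM in BP+Huaier 1 to 3 and 90.0, 110 and 94.5 CPM in BP 1 to 3. The lowest value with Huaier was more than the highest without it. Its log2 fold change was 2.07 ± 0.20 (SE; edgeR adjusted p = 0.00089). SREBF2 (ENSG00000198911.12, chromosome 22, 41833079 to 41907307) had 349, 317 and 282 CPM in the BP+Huaier libraries and 202, 204 and 223 CPM in the BP libraries, again without overlap. It rose 1.51-fold (log2 0.59 ± 0.14, edgeR adjusted p = 0.014), a call lost without BP 1, 2 or 3 or BP+Huaier 2 (edgeR adjusted p = 0.087, 0.077, 0.053 and 0.054) and with the replicate block (0.053).

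The other regulators did not pass the test. SREBF1 (chromosome 17, 17810399 to 17837002) had 523, 489 and 414 CPM with Huaier and 404, 347 and 425 CPM without it, and the groups overlapped because BP+Huaier 3 lay below BP 3 (log2 0.28 ± 0.15, edgeR adjusted p = 0.19). The escort gene SCAP had 198, 176 and 125 CPM with Huaier and 120, 119 and 128 CPM without it (log2 0.44 ± 0.18, edgeR adjusted p = 0.086), so only BP+Huaier 1 and 2 stood above the BP libraries. Without BP+Huaier 3 both were called higher, SREBF1 at an edgeR adjusted p of 0.0040 and SCAP at 8.2e-05. With the dependence on GC content and transcript length taken out of each library (called the trend below), the SREBF1 log2 fold change was -0.02 (edgeR adjusted p = 0.90) and that of SCAP 0.09 (0.50). Under library-size scaling they were 0.01 (0.97) and 0.16 (0.34), and with no filter on low counts SCAP was called higher (0.032). INSIG2, the second INSIG gene, had 10.8, 15.3 and 15.6 CPM with Huaier and 15.9, 18.0 and 12.8 CPM without it (log2 -0.16 ± 0.20, edgeR adjusted p = 0.56). It therefore overlapped between the groups where INSIG1 did not, and it was the far less abundant of the pair. MYLIP, a ubiquitin ligase that marks lipoprotein receptors for breakdown and is induced by the sterol receptor LXR, had 11.8 ± 3.14 CPM with Huaier and 10.6 ± 0.36 CPM without it (SD, n = 3 each; edgeR adjusted p = 0.58). STARD4, a cytosolic carrier of cholesterol, had 2 counts in BP+Huaier 3 and 0 in the other libraries, and was not tested. Of the 6 tested genes of this step 2 rose and 0 fell by edgeR, DESeq2 or limma-voom, and 3 were higher and 0 lower at an unadjusted edgeR p under 0.05. By edgeR 33.3% thus rose, where 14.4% of all tested genes rose and 15.0% fell. In so few genes 0 falls cannot be told apart from the share of all genes.

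The mevalonate steps build the isoprenoid units from acetyl-CoA, and 6 of the 8 genes rose and 1 fell. These shares were 75% and 12.5%, where 14.4% of all tested genes rose and 15.0% fell. HMGCS1 (ENSG00000112972.15, chromosome 5, 43287470 to 43313512), the synthase that makes HMG-CoA, had 55.0, 90.1 and 97.7 CPM with Huaier and 26.7, 27.5 and 23.7 CPM without it. It rose 3.11-fold (log2 1.64 ± 0.22, edgeR adjusted p = 0.0018), and here BP+Huaier 3 was the highest library. MVD, which decarboxylates mevalonate diphosphate, had 147, 149 and 127 CPM with Huaier and 51.8, 41.7 and 55.1 CPM without it, a 2.85-fold rise (edgeR adjusted p = 0.00089). IDI1, which isomerises the product, had 65.3, 87.2 and 75.2 CPM with Huaier and 24.2, 29.8 and 25.5 CPM without it, a 2.86-fold rise (edgeR adjusted p = 0.00089). In MVD and IDI1 each BP+Huaier library stood well above each BP library.

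MVK, mevalonate kinase, had 64.0, 48.5 and 37.8 CPM with Huaier and 26.3, 25.3 and 27.6 CPM without it (1.90-fold, edgeR adjusted p = 0.0095). FDPS, which joins the units to farnesyl diphosphate, had 152, 140 and 108 CPM with Huaier and 77.2, 77.4 and 86.1 CPM without it (1.66-fold, edgeR adjusted p = 0.011). ACAT2, the cytosolic thiolase that starts the pathway, had 103, 95.5 and 67.4 CPM with Huaier and 52.8, 55.6 and 59.9 CPM without it (1.58-fold, edgeR adjusted p = 0.023). In all 3 genes BP+Huaier 1 was the highest library and BP+Huaier 3 the lowest of its group, still above the BP libraries. PMVK, phosphomevalonate kinase, did not follow: it had 24.9, 17.6 and 9.28 CPM with Huaier and 21.1, 16.8 and 23.6 CPM without it, and BP+Huaier 3 was the lowest of the 6 libraries (log2 -0.25 ± 0.31, edgeR adjusted p = 0.56). GGPS1, which makes geranylgeranyl diphosphate for protein prenylation and so draws from this pathway without leading to cholesterol, had 7.62, 6.43 and 7.67 CPM with Huaier and 11.8, 14.0 and 10.4 CPM without it, a 1.67-fold fall (edgeR adjusted p = 0.018). MVK was no longer called when BP 2 was left out (edgeR adjusted p = 0.054), the FDPS call in the fits lacking BP 1, BP 2 or BP+Huaier 2 (0.050 to 0.061), and that of ACAT2 call without BP 1, 2 or 3 or BP+Huaier 2 (up to 0.10), under library-size scaling and with the replicate block. That of GGPS1 did not survive leaving out BP 1, BP 2 or BP+Huaier 2 (0.071, 0.094 and 0.078) and with the replicate block (0.052).

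From squalene to cholesterol 7 of 12 genes rose and 1 fell, or 58.3% and 8.33%, where 14.4% and 15.0% of all tested genes did. FDFT1 (ENSG00000079459.13, chromosome 8, 11795573 to 11839304), squalene synthase and the first enzyme committed to sterols, had 607, 677 and 442 CPM with Huaier and 174, 183 and 175 CPM without it (3.25-fold, edgeR adjusted p = 0.00089). MSMO1 (ENSG00000052802.13, chromosome 4, 165327667 to 165343164), a methylsterol oxidase that takes part in removing methyl groups from the sterol ring, had 92.9, 128 and 109 CPM with Huaier and 27.2, 30.3 and 23.0 CPM without it. Its 4.09-fold rise (log2 2.03 ± 0.17) had the smallest edgeR adjusted p of the 46 genes, 0.00062. DHCR7, which makes cholesterol from its direct precursor, had 295, 294 and 194 CPM with Huaier and 91.4, 91.3 and 102 CPM without it (2.75-fold, edgeR adjusted p = 0.0016). EBP, the sterol isomerase, had 89.3, 92.2 and 57.4 CPM with Huaier and 30.8, 31.2 and 35.1 CPM without it (2.46-fold, edgeR adjusted p = 0.0028). For FDFT1, DHCR7 and EBP, BP+Huaier 3 was the library of its group nearest to BP and was still well above it.

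SQLE, squalene epoxidase and a rate-limiting enzyme of this branch, had 67.9, 82.7 and 79.5 CPM with Huaier and 39.2, 42.5 and 34.8 CPM without it (1.98-fold, edgeR adjusted p = 0.0026). CYP51A1, the lanosterol demethylase, had 12.4, 14.8 and 13.6 CPM with Huaier and 7.03, 6.65 and 6.08 CPM without it (2.06-fold, edgeR adjusted p = 0.0032). LSS, which closes the sterol ring, had 255, 218 and 178 CPM with Huaier and 145, 133 and 152 CPM without it (1.51-fold, edgeR adjusted p = 0.024). The groups did not overlap in any of the 3. The LSS call was lost without each library but BP+Huaier 3 (edgeR adjusted p from 0.053 to 0.11), under library-size scaling and with the replicate block, while the calls of SQLE and CYP51A1 were kept in the 14 alternative fits.

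Neither enzyme that can reduce the sterol ring at its C14 bond was called higher. LBR, the lamin B receptor of the inner nuclear membrane, which has this reductase activity, had 35.9, 38.7 and 52.1 CPM with Huaier and 68.7, 70.4 and 62.8 CPM without it, a 1.59-fold fall (edgeR adjusted p = 0.018). TM7SF2, the reductase of the endoplasmic reticulum, had 71.4, 54.9 and 35.2 CPM with Huaier and 54.5, 46.6 and 55.7 CPM without it (log2 0.04 ± 0.23, edgeR adjusted p = 0.90). BP+Huaier 1 was the highest and BP+Huaier 3 the lowest of the 6 libraries for TM7SF2, and with the trend removed it was called lower (log2 -0.40, edgeR adjusted p = 0.027). The LBR call was lost without BP 1, 2 or 3 or BP+Huaier 2 (0.076, 0.081, 0.054 and 0.086). NSDHL and HSD17B7, which act with MSMO1 in removing the methyl groups, were higher in all BP+Huaier libraries but not called. NSDHL averaged 45.7 ± 9.46 CPM with Huaier and 32.6 ± 2.12 CPM without it (edgeR adjusted p = 0.060), and HSD17B7 averaged 44.4 ± 2.81 and 36.0 ± 2.44 CPM (0.11; SD, n = 3 each). Without BP+Huaier 3 both passed (0.00058 and 0.049), as they did with the trend removed (0.014 and 0.0058). SC5D, the sterol desaturase, averaged 9.52 ± 1.27 CPM with Huaier and 7.95 ± 1.20 CPM without it (edgeR adjusted p = 0.32, and 0.014 after removal of the trend).

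**Figure D2:**
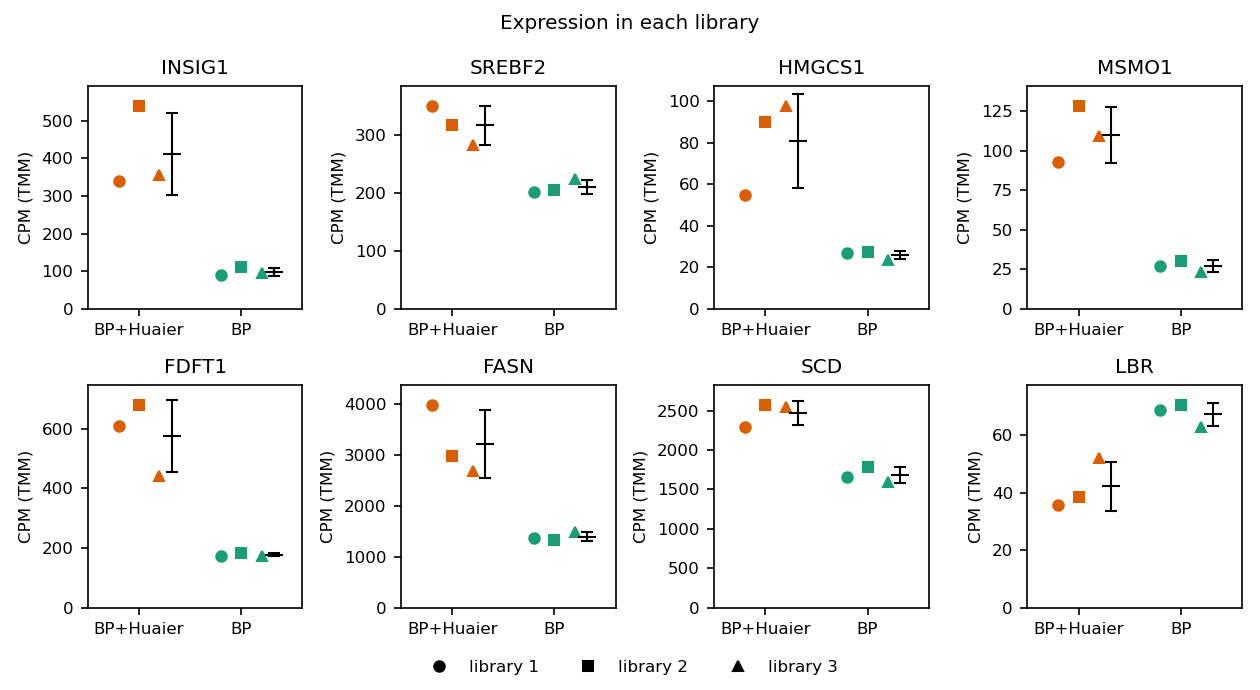
CPM (TMM-scaled) of 8 genes in each of the 3 BP+Huaier libraries (orange, left) and the 3 BP libraries (green, right); symbols give the library number, and the bar beside each group is the mean ± SD. INSIG1, SREBF2, HMGCS1, MSMO1, FDFT1, FASN and SCD lie higher in all BP+Huaier libraries, with HMGCS1 at 55.0 to 97.7 CPM against 23.7 to 27.5 CPM, and LBR lies lower.

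Reads at several of these genes may be affected by other genes on the same bases. Exons of CYP51A1 shared 80.6% of their bases with a gene on the same strand that had 0 counts in the 6 libraries, those of GGPS1 37.3% with one that had 234, and those of EBP 36.4% with one that had 9. HMGCS1 shared 37.7% of its exon bases with a gene on the opposite strand with 0 counts, FDPS shared 18.6% with RUSC1-AS1, and ACAT2 shared 17.2% with TCP1, whose counts were higher than its own, on the opposite strand. The sources used here do not give how the counting treated shared bases and strand, so the levels of these genes are uncertain to that extent.

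Fatty acid synthesis starts from cytosolic acetyl-CoA, and 4 of the 7 tested genes of this step rose and 1 fell. These shares were 57.1% and 14.3%, where 14.4% of all tested genes rose and 15.0% fell. FASN (ENSG00000169710.9, chromosome 17, 82078338 to 82098294), the fatty acid synthase, had 3978, 2978 and 2700 CPM with Huaier and 1366, 1331 and 1498 CPM without it. It rose 2.30-fold (log2 1.20 ± 0.18, edgeR adjusted p = 0.0029) with no overlap. ACSS2, which makes acetyl-CoA from acetate, had 89.1, 108 and 93.7 CPM with Huaier and 49.1, 46.0 and 47.0 CPM without it (2.04-fold, edgeR adjusted p = 0.0017). ACLY, which makes it from citrate, had 715, 642 and 526 CPM with Huaier and 449, 439 and 436 CPM without it (1.42-fold, edgeR adjusted p = 0.035). Both suppliers of acetyl-CoA thus rose, with no overlap between the groups. ACLY was no longer called with any library but BP+Huaier 3 left out (edgeR adjusted p from 0.088 to 0.13), under library-size scaling (0.098) and with the replicate block (0.093).

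The carboxylases that make malonyl-CoA did not rise. ACACA, the main cytosolic form and the committed step of fatty acid synthesis, had 185, 173 and 195 CPM with Huaier and 208, 214 and 204 CPM without it (log2 -0.18 ± 0.13, edgeR adjusted p = 0.30). All 3 BP+Huaier libraries lay below the BP libraries, and the gene was called lower only with scaling by library size alone (0.049). ACACB, the form at the mitochondrial membrane that holds back fatty acid oxidation, had 19.8, 20.0 and 25.1 CPM with Huaier and 31.4, 28.2 and 31.2 CPM without it, a 1.40-fold fall (edgeR adjusted p = 0.042). Its call was lost without each library but BP+Huaier 3 (up to 0.16), with no filter on low counts and with the replicate block. MLXIPL, the glucose-responsive factor ChREBP, had 25.3, 28.1 and 28.4 CPM with Huaier and 20.2, 18.3 and 21.8 CPM without it (1.36-fold, edgeR adjusted p = 0.046). That call was among the least stable, since 9 of the 14 alternative fits lost it, with a log2 fold change of 0.07 with the trend removed (edgeR adjusted p = 0.75) and edgeR adjusted p = 0.16, 0.18, 0.082 and 0.13 without BP 1, 2 and 3 and without BP+Huaier 2. ME1, malic enzyme, which supplies NADPH, averaged 55.4 ± 3.38 CPM with Huaier and 44.6 ± 5.60 CPM without it (SD, n = 3 each; edgeR adjusted p = 0.12, 0.044 without BP+Huaier 3 and 0.0043 after removal of the trend). THRSP, a lipogenic factor of liver and fat, had 0 counts in the 6 libraries, which allows at most 0.222 CPM with Huaier and 0.177 CPM without it.

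Of the 6 genes of elongation and desaturation 2 rose, or 33.3%, where 14.4% of all tested genes rose, and both are desaturases. SCD, which makes monounsaturated fatty acids, had 2292, 2564 and 2548 CPM with Huaier and 1664, 1789 and 1597 CPM without it (1.47-fold, edgeR adjusted p = 0.022). FADS2, the delta-6 desaturase of polyunsaturated fatty acids, had 66.0, 58.7 and 49.9 CPM with Huaier and 36.2, 37.0 and 39.2 CPM without it (1.55-fold, edgeR adjusted p = 0.013). The groups were apart in both. FADS1, its neighbour with delta-5 activity, averaged 71.2 ± 6.35 CPM with Huaier and 60.0 ± 0.732 CPM without it (SD, n = 3 each; edgeR adjusted p = 0.18), and was called without BP+Huaier 3 (0.011) and after removal of the trend (0.046). The elongases showed no call: ELOVL1 averaged 154 ± 33.4 CPM with Huaier and 118 ± 6.17 CPM without it (edgeR adjusted p = 0.12), ELOVL5 averaged 295 ± 42.4 and 285 ± 20.8 CPM (0.82), and ELOVL6 10.2 ± 4.04 and 12.6 ± 1.40 CPM (0.41). Without BP+Huaier 3, ELOVL1 was called higher (0.00017) and ELOVL6 lower (0.0041), since in BP+Huaier 1 and 2 ELOVL6 stood at 7.06 and 8.79 CPM and in BP+Huaier 3 at 14.8 CPM. The SCD and FADS2 calls were lost without BP 1, 2 or 3 or BP+Huaier 2 (up to 0.12 and 0.074) and under library-size scaling (0.12 and 0.059), and the SCD call also with the replicate block (0.080). By edgeR 0 genes of this step fell, also at an unadjusted p under 0.05, as by DESeq2 and limma-voom. Of all tested genes 15.0% fell by edgeR, and in so few genes 0 falls cannot be told apart from that share.

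Of 7 genes that activate fatty acids and build glycerolipids 3 rose and 1 fell, or 42.9% and 14.3%. Of all tested genes 14.4% rose and 15.0% fell, so the share that fell was near that of all genes. DGAT2, which makes triacylglycerol from newly synthesised fatty acids, had 52.7, 42.6 and 32.4 CPM with Huaier and 19.3, 17.1 and 20.7 CPM without it (2.23-fold, edgeR adjusted p = 0.0041). AGPAT2, which makes phosphatidic acid, had 333, 270 and 155 CPM with Huaier and 139, 122 and 147 CPM without it (1.86-fold, edgeR adjusted p = 0.027). DGAT1, the other enzyme of the last step, had 81.0, 70.3 and 53.4 CPM with Huaier and 41.9, 41.7 and 46.5 CPM without it (1.57-fold, edgeR adjusted p = 0.022). In all 3 genes BP+Huaier 3 was the lowest library of its group, and for AGPAT2 it lay just above the BP libraries. GPAM, the mitochondrial acyltransferase of the first step and an SREBP-1 target, had 11.2, 11.0 and 17.0 CPM with Huaier and 20.8, 20.7 and 18.5 CPM without it, a 1.53-fold fall (edgeR adjusted p = 0.046). LPIN1, a phosphatidate phosphatase, averaged 128 ± 38.2 CPM with Huaier and 119 ± 4.06 CPM without it (SD, n = 3 each; edgeR adjusted p = 0.72). The acyl-CoA synthetases ACSL1 and ACSL3 averaged 58.8 ± 0.62 and 74.8 ± 15.7 CPM with Huaier and 50.0 ± 4.07 and 75.8 ± 2.70 CPM without it (edgeR adjusted p = 0.19 and 0.94), and after removal of the trend both were called higher (0.028 and 0.0097). The GPAM call was lost without each library but BP+Huaier 3 (up to 0.17) and with the replicate block, and the AGPAT2 call without the same libraries (up to 0.12) and under library-size scaling. The DGAT1 call was lost without BP 1, 2 or 3 or BP+Huaier 2 (up to 0.095), under library-size scaling, with the replicate block and after removal of the trend (0.056).

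Set per kilobase of exons, which allows levels of different genes to be compared, SCD and FASN were the most abundant of the 48 genes, at 471 and 345 CPM per kilobase with Huaier and 321 and 150 CPM per kilobase without it. AGPAT2, ACLY, INSIG1 and FDFT1 followed with Huaier, at 138, 121, 113 and 111 CPM per kilobase, and stood at 74.2, 84.8, 26.9 and 34.1 CPM per kilobase without it. The ratio of INSIG1 to INSIG2 per kilobase was 34.0, 38.1 and 24.8 with Huaier and 6.13, 6.62 and 8.02 without it. SREBF1 exceeded SREBF2 per kilobase in each library, by a ratio of 1.38, 1.42 and 1.35 with Huaier and 1.83, 1.56 and 1.75 without it, so the share of SREBF2 was larger with Huaier. The ratio of DGAT1 to DGAT2 was 2.94, 3.16 and 3.16 with Huaier and 4.16, 4.66 and 4.30 without it, and that of FADS2 to FADS1 was 0.841, 0.774 and 0.756 with Huaier and 0.577, 0.605 and 0.632 without it. In these 4 pairs and for ACACA and ACACB the groups did not overlap. Each had an exact two-sided permutation p of 0.10, the smallest that 3 libraries against 3 allow, and an adjusted p of 0.12 over the 6 ratios computed, which were chosen after the values were seen. For TM7SF2 and LBR the ratio was 3.33, 2.38 and 1.13 with Huaier and 1.33, 1.11 and 1.49 without it (exact permutation p = 0.30).

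**Figure D3:**
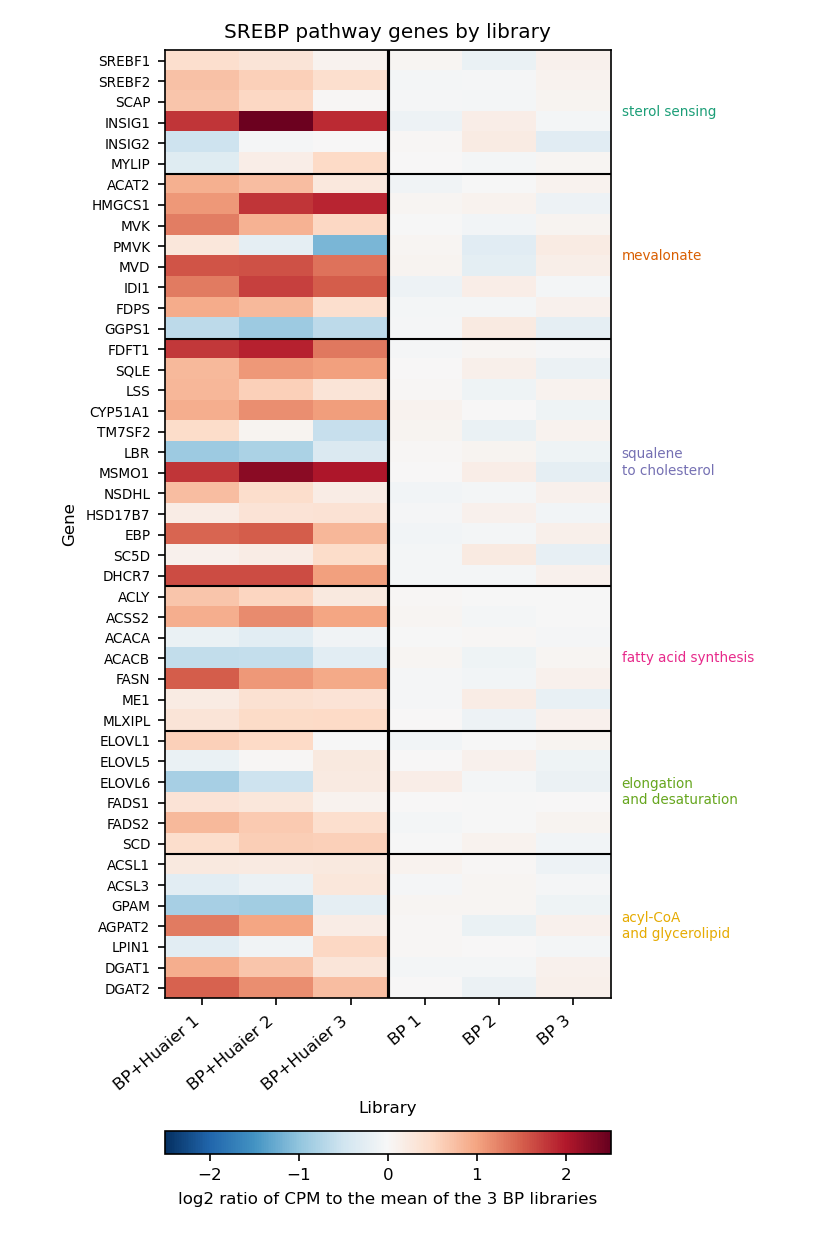
The log2 ratio of the CPM of each tested gene to its mean over the 3 BP libraries, with the BP+Huaier libraries on the left and the BP libraries on the right, by pathway step. Red is above and blue below that mean; INSIG1 and MSMO1 are the darkest rows in the BP+Huaier libraries, and many rows are paler in BP+Huaier 3.

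The genes called higher were above the BP mean in each BP+Huaier library, which their choice from these same libraries favours. They were most often least so in BP+Huaier 3. Summed over the 46 genes, the level was 12318, 11686 and 10333 CPM in BP+Huaier 1 to 3 and 6658, 6711 and 6767 CPM in BP 1 to 3, sums that FASN and SCD dominate. The 12 genes from squalene to cholesterol summed to 1632, 1699 and 1255 CPM with Huaier and 712, 715 and 722 CPM without it, and the 8 mevalonate genes to 619, 635 and 530 CPM with Huaier and 292, 288 and 312 CPM without it. Of the 24 genes called higher, BP+Huaier 3 was the library of its group nearest to BP for 15 and the farthest for 2. It was the nearest to BP for all 4 genes called lower, but for GGPS1 only at 7.67 CPM against 7.62 CPM in BP+Huaier 1. How often BP+Huaier 3 was nearest to BP among all called genes was not computed. These counts therefore cannot be set against all genes. Without BP+Huaier 3, 31 genes were called higher and 5 lower, where the share of all tested genes was 28.8% and 31.0%. Without BP 1, 2 and 3, 14, 13 and 15 were called higher and 0, 0 and 1 lower by edgeR, and without BP+Huaier 1 and 2, 21 and 14 higher and 2 and 0 lower. Without BP 1, 2 and 3 the shares of all genes called higher were 5.27%, 5.46% and 6.61%, and those called lower 5.92%, 6.14% and 6.84%. Without BP+Huaier 1 and 2 they were 11.4% and 6.08% higher and 11.8% and 6.48% lower.

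GC content moved with the fold change across the genes of these libraries, and also with differences between libraries of the BP group. Over all tested genes, the log2 level of BP 1 to 3 less the mean of the other BP libraries had a Pearson r with GC content of 0.034, -0.44 and 0.42. Less the BP mean, r was 0.39, 0.27 and 0.028 in BP+Huaier 1 to 3. Over the 46 genes, which are not independent replicates and share the libraries, the log2 fold change and the GC content of the longest transcript had a Pearson r of 0.18, and over 14896 tested genes r was 0.26. The median GC content was 54.0% for the 24 genes called higher, 40.7% for the 4 called lower and 49.4% for all tested genes. With this trend removed, 29 genes were called higher and 5 lower, where 19.1% of all tested genes were called in each direction. The rises of MSMO1 and HMGCS1, at transcript GC contents of 38.1% and 40.2%, were as large or larger then (log2 2.26 and 1.84), and those of FASN and MVD, at 65.3% and 63.7%, were smaller (log2 0.88 and 1.12). Scaling by library size alone moved the median of all genes to -0.28 on the log2 scale, and that of these genes to 0.22, with 16 genes called higher and 5 lower, where 7.00% and 19.7% of all tested genes were.

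**Figure D4:**
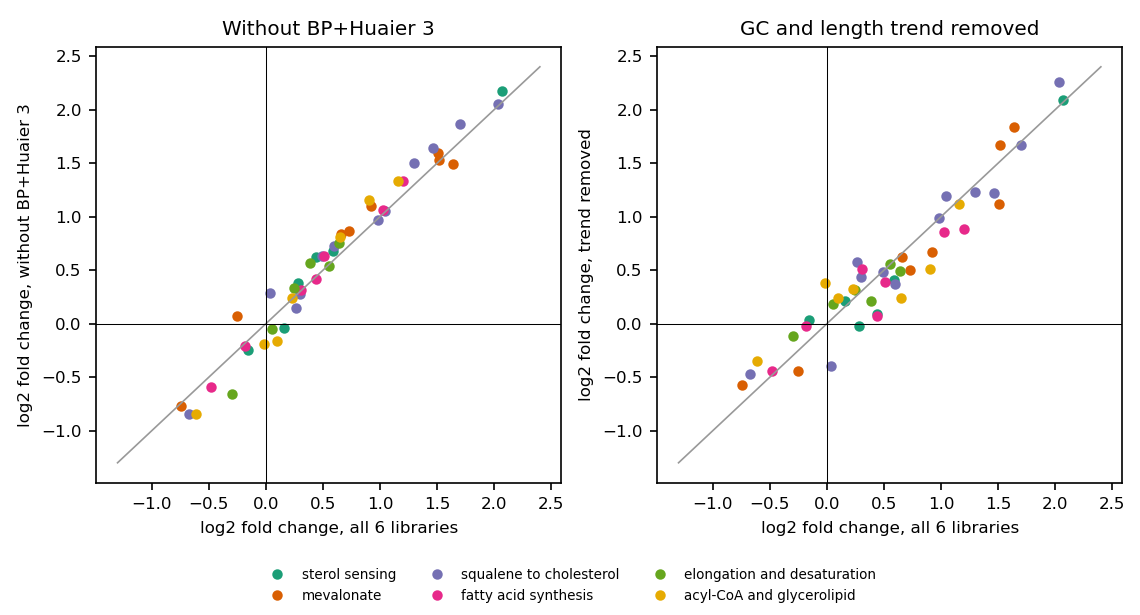
The log2 fold change of each tested gene, BP+Huaier over BP, without BP+Huaier 3 (left panel) and after removal of the GC and length trend (right panel), against the value with all 6 libraries; the grey line marks equal values and colours give the pathway step. Most points lie near the line, and TM7SF2 drops to -0.40 in the right panel.

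Beside these genes, 80 others of the pathway's surroundings were looked at in 7 lists, and 75 were tested: 13 rose and 7 fell. These shares, 17.3% and 9.33%, compare with 14.4% and 15.0% of all tested genes and with 16.6% and 12.8% of tested protein-coding genes. The share that rose was thus near that of all genes, and the share that fell was below it. Among 10 genes of sterol transport and storage 5 rose and 0 fell by edgeR, with 6 and 0 at an unadjusted p under 0.05. Here and wherever counts at an unadjusted p are given, the share of all tested genes at that threshold was not computed. Those counts therefore cannot be set against all genes. GRAMD1B, which carries cholesterol from the plasma membrane to the endoplasmic reticulum, averaged 148 ± 7.52 CPM with Huaier and 75.1 ± 4.15 CPM without it (1.97-fold, edgeR adjusted p = 0.0017), and NPC1, which exports cholesterol from lysosomes, averaged 91.3 ± 3.83 and 56.5 ± 4.44 CPM (1.62-fold, edgeR adjusted p = 0.0059; SD, n = 3 each). NPC1 was not called in the fit lacking BP 1 (0.051) or under library-size scaling (0.057). LXR senses oxysterols and switches on genes of sterol export, and among 5 tested genes of LXR and its targets 2 fell and 0 rose, also at an unadjusted p under 0.05. ABCA1, a sterol exporter, had 4.61, 5.62 and 13.0 CPM with Huaier and 28.9, 28.3 and 30.0 CPM without it, a 3.72-fold fall (log2 -1.90 ± 0.34, edgeR adjusted p = 0.0051). Its fall was larger without BP+Huaier 3 (log2 -2.50). NR1H3, which encodes LXR alpha, averaged 6.67 ± 1.99 CPM with Huaier and 13.4 ± 2.49 CPM without it (edgeR adjusted p = 0.015), a call lost without BP 1, BP 3 or BP+Huaier 2 (0.051, 0.082 and 0.071). ABCG1, also an LXR target, had 42.1, 34.7 and 31.5 CPM with Huaier and 33.4, 34.3 and 34.1 CPM without it and was not called (edgeR adjusted p = 0.68).

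Of 9 genes of SREBP cleavage and sterol-regulated protein breakdown 2 fell, or 22.2%, where 15.0% of all tested genes fell. ERLIN2, which takes part in that breakdown in the endoplasmic reticulum, averaged 40.4 ± 4.28 CPM with Huaier and 69.7 ± 2.27 CPM without it, a 1.72-fold fall (SD, n = 3 each; edgeR adjusted p = 0.0044). The ubiquitin ligase RNF145 fell 1.34-fold (edgeR adjusted p = 0.047), a call lost without each library but BP+Huaier 3 (0.11 to 0.18), with the replicate block (0.12), with RLE size factors (0.056) and with no filter on low counts (0.13). The proteases that release SREBPs, MBTPS1 and MBTPS2, were not called (edgeR adjusted p = 0.37 and 0.065), although both were lower in all BP+Huaier libraries. MBTPS2 averaged 58.5 ± 17.5 CPM with Huaier and 86.6 ± 6.52 CPM without it (SD, n = 3 each), and over the alternative fits its adjusted p lay between 2.8e-05 and 0.22 and that of MBTPS1 between 0.036 and 0.67. Of 6 partner factors of SREBPs, NFYA, a subunit of NF-Y, rose 1.51-fold (edgeR adjusted p = 0.018), a call lost without BP 1, 2 or 3 or BP+Huaier 2 (up to 0.086), with the replicate block (0.050) and under library-size scaling (0.19), and 0 fell. In the isoprenoid branch 1 of 11 rose and 0 fell by edgeR, with 1 and 3 at an unadjusted p under 0.05. The one that rose was RCE1, which trims prenylated proteins (1.96-fold, edgeR adjusted p = 0.0068). The share that rose was 16.7% of the partner factors and 9.09% of the isoprenoid branch. Of all tested genes 14.4% rose and 15.0% fell.

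Of 20 tested accessory genes of fatty acid synthesis 5 rose and 1 fell, or 25% and 5%, where 14.4% and 15.0% of all tested genes did. MID1IP1, which helps acetyl-CoA carboxylase to polymerise, averaged 28.7 ± 8.26 CPM with Huaier and 13.3 ± 1.27 CPM without it (2.16-fold, edgeR adjusted p = 0.0084, and 0.051 without BP 2). SLC25A1, which exports citrate from mitochondria, averaged 364 ± 101 CPM with Huaier and 212 ± 12.4 CPM without it (1.71-fold, edgeR adjusted p = 0.022; SD, n = 3 each). Its call was lost without BP 1, 2 or 3 or BP+Huaier 2 (up to 0.10). LPIN3, a relative of LPIN1, fell 1.76-fold (edgeR adjusted p = 0.0041). Of 14 tested genes of fatty acid oxidation 2 fell and 0 rose by edgeR, with 3 and 0 at an unadjusted p under 0.05. The share that fell, 14.3%, was near the 15.0% of all tested genes. CPT2, which passes fatty acids into the mitochondrial matrix, fell 1.81-fold (edgeR adjusted p = 0.0072) and ACADM, the medium-chain dehydrogenase, fell 1.74-fold (0.0081), and with the trend removed neither was called (0.12 and 0.11).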

How the data were processed

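Gene expression was measured by RNA sequencing (150 bp paired reads, per the labels' protocols) in 3 libraries of each group. The submitters' processing notes name fastp 0.20.0, featureCounts 1.6.1, HISAT2 2.1.0 and the GRCh38 build; annotation, strand and multimapping settings are not given there. The authors deposited raw counts of reads for each gene, and the length column gives exon bases, per the file headers. Of 60648 genes, 44 second copies on the Y chromosome with 0 counts were left out, and 1 more gene, on 3 broken lines, was not used. Symbols were found for 99.77% of the IDs, and columns were mapped by sample title.

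Counts were filtered with filterByExpr, scaled by TMM and tested with the robust quasi-likelihood test of edgeR 4.0.16 in R 4.3.3, with group as the only term and p-values adjusted over all genes tested. Standard errors are those implied by the test. Intervals and floors of 3 counts cover counting error only. GC content came from the longest transcript in GENCODE release 29, and promoters came from RefSeq. Alternatives were DESeq2-type size factors (RLE), library size alone, DESeq2 1.42.0, limma-voom (limma 3.58.1), 2 other filters, the replicate number as a block, subtraction of each library's spline on GC content and transcript length, each library left out, and an adjusted p under 0.01. The steps were tested on simulated counts.

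The members, lists and tests were chosen with earlier results of these data known. Every member is named, those called with at least 5 CPM on average and the SREBF, SCAP and INSIG genes with each library's value. Of each other list, up to 2 called genes of at least 5 CPM in each direction are named by size of change, except 1 result that is not reported here; MBTPS1, MBTPS2 and ABCG1, and the promoters of INSIG1 and MSMO1, were added after values were seen.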

Additional observations from a re-analysis of the deposited data

How the results depend on the processing

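All 28 called genes kept their direction in the 14 alternative fits, and 13 kept their call in each. When 1 library was left out, the 46 tested genes gave 13 to 31 higher and 0 to 5 lower calls, the other pathway genes 3 to 31 and 5 to 14, and all genes 810 to 4452 and 909 to 4793. Most calls were made without BP+Huaier 3. At an adjusted p under 0.01 the members gave 14 and 0 calls, the other pathway genes 4 and 5, and all genes 826 and 810. Library size alone gave 5 higher and 14 lower calls for the other pathway genes and 1051 higher for all genes, and a filter at 5 CPM gave 1357 lower. The cause was not tested, except that leaving out a library removes samples.

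With the replicate number as a block, 17 members were called higher and 1 lower, 6 other pathway genes higher, and 1357 genes higher in all. Same-numbered libraries had correlations of 0.0085, -0.056 and -0.28 in their deviations from the group means. No library correlated best with its own number, so the numbers were not taken as pairs.

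Genes not called in the report changed sign on the log2 scale. With the trend on GC content and length removed, SREBF1 was at -0.02, INSIG2 at 0.03, TM7SF2 at -0.40 and ACSL3 at 0.38. With library size alone MYLIP was at -0.08, TM7SF2 at -0.25, ELOVL5 at -0.20, FADS1 and ACSL1 at -0.03 and LPIN1 at -0.13. TM7SF2 was at -0.02 by limma-voom, -0.06 at 5 CPM and -0.01 with the block, ELOVL5 at -0.04 at 5 CPM, and ACSL3 at 0.01 by RLE, DESeq2 and no filter. With 1 library left out, MYLIP lay between -0.04 and 0.35, PMVK between -0.61 and 0.07, TM7SF2 between -0.21 and 0.29, ELOVL5 between -0.05 and 0.16, ACSL3 between -0.19 and 0.10 and LPIN1 between -0.16 and 0.26.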
